A study of Homo sapiens with 16 samples.

Results

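Integrins are the transmembrane receptors with which cells hold on to the extracellular matrix, and laminins are the matrix proteins of the basement membrane that several of them bind. The genes described here are all those whose symbol in the array's annotation names an integrin alpha or beta subunit or a laminin alpha, beta or gamma chain, and that had a value. There were 35 of them among 19775 genes, 25 integrin subunits and 10 laminin chains. Where a gene had several probe sets, the one of highest mean value on the 16 arrays stood for it; 25 of the genes had further probe sets, and 10 had 1 only. LAMA3 and ITGB6 were not analysed here.

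The data came from 16 arrays of the type Affymetrix U133 Plus 2.0, each with 1 labelled sample, 4 in each of 4 groups, and the series asks how blocking glucose metabolism changes gene expression in mammary cells. MCF10A is a human mammary epithelial line, immortalized and non-tumorigenic, and MDA-MB-231 came from a human breast cancer; no allele or transgene was named for either. Cultures of low confluence, whose medium had 17.5 mM glucose, were treated for 24 h with 2-deoxy-glucose (2DG) at 50 mM or with its vehicle, water; 2DG is taken up like glucose but cannot be metabolized through glycolysis. MDA-MB-231 was fed with fetal bovine serum. MCF10A was fed with horse serum plus hydrocortisone, cholera toxin, insulin and epidermal growth factor, so line and medium cannot be told apart. The replicates, lettered A to D, were called independent and biological in the design text, which adds that they were run in parallel.

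An integrin is a pair of an alpha and a beta subunit, and the pair decides which ligand is bound: collagens, laminins, matrix proteins with the short peptide motif RGD such as fibronectin and vitronectin, or counter-receptors on other cells. A laminin is a trimer of an alpha, a beta and a gamma chain. In mammary epithelium basal cells rest on laminin through hemidesmosomes, in which the integrin of ITGA6 and ITGB4 binds a laminin that contains the LAMB3 chain, and through focal adhesions, in which ITGB1 pairs with many alpha subunits.

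The labels of the lines were set against cell type markers. Over 6 measured basal epithelial markers of 10 listed, the mean log2 level per array was 12.58 to 12.69 in MCF10A on vehicle and 7.09 to 7.32 in MDA-MB-231. CDH1, which encodes E-cadherin, stood at 13.06 ± 0.0206 (SD, n = 4) in MCF10A and 4.62 ± 0.231 in MDA-MB-231, and ZEB1, a repressor of epithelial genes, at 7.75 ± 0.0763 and 11.29 ± 0.0542. Over the 10 epithelial markers the mean level per array on vehicle was 9.52 to 9.68 in MCF10A and 8.39 to 8.49 in MDA-MB-231, over the 9 mesenchymal markers 10.03 to 10.16 and 9.50 to 9.60, and over the 8 luminal markers 7.75 to 7.80 and 7.39 to 7.49. On vehicle 2 epithelial markers were called higher and 4 lower in MDA-MB-231, with differences from -8.44 to 7.57. For the mesenchymal markers these were 5 and 4, from -5.37 to 3.54. CDH1 and ZEB1 therefore do not stand for their lists. Of markers of cells that neither culture should hold, the 8 measured leukocyte markers had a mean of 6.61 to 6.74 in MCF10A on vehicle and 6.06 to 6.07 in MDA-MB-231. The others gave means on vehicle of 5.75 to 6.13 for the 6 endothelial markers, 5.40 to 5.89 for the 6 platelet markers and 5.57 to 6.07 for the 7 fibroblast markers, beside a median of all probe sets of 6.23. With 2DG the MCF10A means were 10.58 to 10.66 for the mesenchymal markers (5 of 9 rose and 3 fell), 8.27 to 8.31 for the luminal, 9.80 to 9.87 for the epithelial, 12.95 to 12.99 for the basal and 6.51 to 6.59 for the fibroblast markers. In MDA-MB-231 with 2DG they were 9.66 to 9.71, 7.71 to 7.78, 8.18 to 8.32, 7.27 to 7.43 and 5.88 to 6.01. The part of these shifts in the changes below was not tested.

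The log2 difference between the 3' and 5' actin control probe sets, a sign of RNA integrity, was 0.393 ± 0.067 (SD, n = 4) in MCF10A on vehicle, 0.55 ± 0.0678 in MCF10A with 2DG and 1.03 ± 0.0714 in MDA-MB-231 with 2DG. In MDA-MB-231 on vehicle it was 0.38, 0.45 and 0.47 in replicates A, C and D but 1.09 in replicate B. This array also stood apart for several of the genes below, and results that rest on it are given without it. Fits with this actin ratio as a covariate rest largely on the same array. The SD of the ratio was 0.331 in its group and at most 0.0714 in the others. All changes below are differences of mean log2 values with their standard error (SE) from limma, n = 4 arrays a group, and calls were made at 0.05 on p-values adjusted after Benjamini and Hochberg over all 19775 genes. In bulk RNA, fewer cells expressing a gene and less of its RNA per cell cannot be told apart.

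With 2DG, 20 of the 35 genes changed in MCF10A (12 rose and 8 fell) and 19 changed in MDA-MB-231 (12 rose and 7 fell). A similar share of all genes was called: 54.2% in MCF10A (29.0% rising, 25.2% falling) and 50.9% in MDA-MB-231 (25.5% rising, 25.4% falling), beside 57.1% and 54.3% of the integrin and laminin genes. The MDA-MB-231 counts by direction moved with RNA quality and with single arrays: 7 rose and 7 fell with the actin ratio as a covariate, 12 rose and 4 fell without vehicle replicate B, and 11 rose and 4 fell without 2DG replicate C. A change of at least 1 log2 unit was called for 7 of the genes in MCF10A, where 11.2% of all genes reached it, and for 3 in MDA-MB-231, where 7.79% did. The 4 arrays on 2DG lay wholly above or below the 4 on vehicle for 19 genes in MCF10A and 15 in MDA-MB-231, and the background of such genes was 51.6% and 46.9%. The median change of the 35 genes was 0.04 in MCF10A and 0.07 in MDA-MB-231, against 0.02 and 0.03 for all genes.

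The 2 lines responded differently in 20 of the 35 genes by the test of the difference itself (MDA-MB-231 response minus MCF10A response), where 45.8% of all genes were called (22.3% positive, 23.6% negative). The difference was positive for 10 and negative for 10 of them, and for 5 it was at least 1 log2 unit, as it was for 8.90% of all genes. Without the probe sets whose design allows cross-matches, which left 32 of the genes, it was negative for 6. In that setting 15 of the 32 were called, and 7060 of 17100 genes in all. In both lines 14 of the 35 genes were called (40%, beside 39.4% of all genes), 4 of them in opposite directions (28.6% of those called in both, beside 20.9%). They were 7 that rose in both (LAMB2, LAMB3, ITGA2, ITGA5, ITGA10, ITGAV and ITGB8), 3 that fell in both (LAMB1, ITGA1 and ITGAE) and the 4 that went opposite ways. Of the last, LAMC1 and ITGB2 fell in MCF10A and rose in MDA-MB-231, and LAMA5 and ITGB5 rose in MCF10A and fell in MDA-MB-231. Another 6 were called in MCF10A only, 5 in MDA-MB-231 only, and 10 in neither. In all, 57.1% of the 35 genes were called in MCF10A and 54.3% in MDA-MB-231, beside 54.2% and 50.9% of all genes. With the similar share called in both, this split was near that of all genes. The responses share no array, and across the 35 genes, which are no replicates of each other, their Pearson correlation was 0.432 and Spearman's rho 0.418, beside 0.54 and 0.478 over all genes. Of the genes with the largest responses, LAMB3 and ITGAE changed by nearly equal amounts in the lines. On the probe sets used, LAMA1, LAMB2, ITGB8, ITGA1 and ITGA4 changed by more than 1 log2 unit in MCF10A and by at most 0.37 in MDA-MB-231. The ITGA4 level in MDA-MB-231 was too low to show a fall, and some other ITGB8 probe sets rose by more there.

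**Figure D1:**
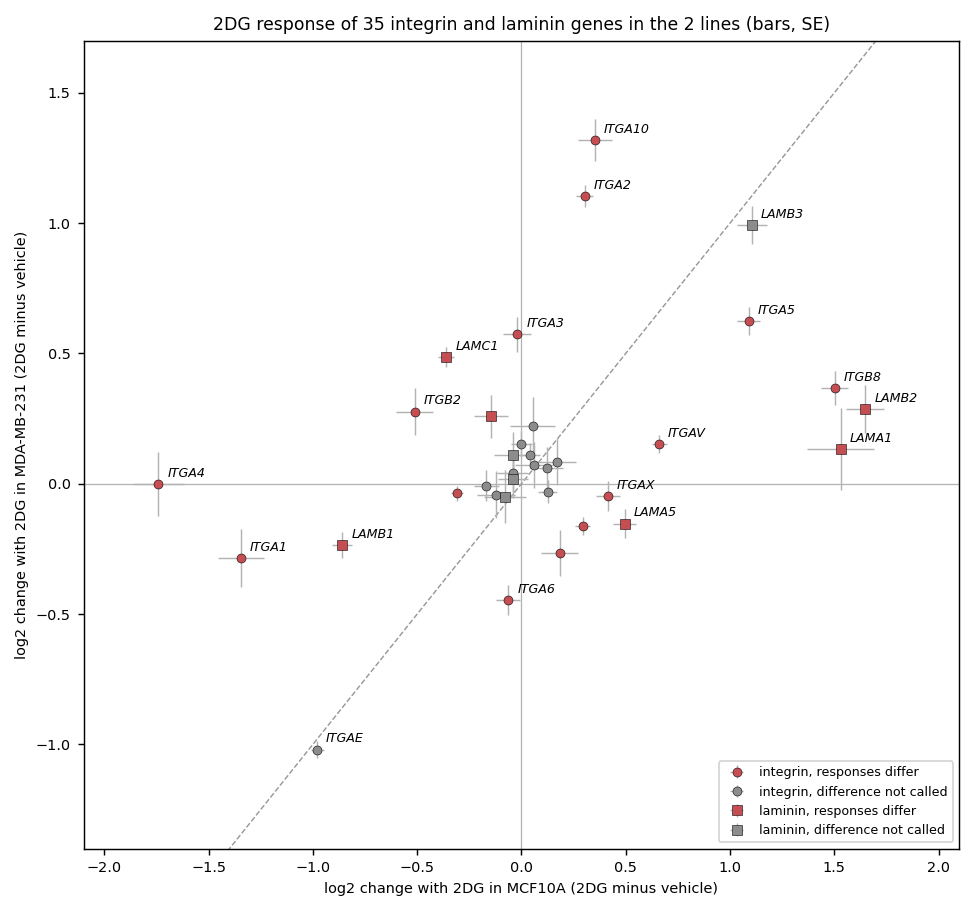
Change with 2DG in MCF10A (horizontal axis) against the change in MDA-MB-231 (vertical axis), both in log2 units, for the 35 genes; circles are integrin subunits, squares laminin chains, bars the SE, and the dashed line marks equal change. Red points are the 20 genes whose responses differed between the lines, and grey points the others. Of the red points, LAMA1, LAMB2 and ITGB8 lie far right of the line, ITGA4 far left of it, and ITGA2 and ITGA10 above it. LAMB3 and ITGAE, both grey, lie close to it.

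The promoters are shown for 3 of the genes that moved the same way in both lines: LAMB3 and ITGA5, which rose, and ITGAE, which fell. RefSeq (GRCh38.p14) gave a promoter for 24 of the 35 genes, and the window shown runs from 250 bases before the annotated start to 10 bases after it, 5′ to 3′ on the gene's strand. All 3 lie on the minus strand: LAMB3 at chr1:209651365-209651624, ITGA5 at chr12:54419257-54419516 and ITGAE at chr17:3801179-3801438. Capitals mark matches on either strand to TGANTCA, the site letters of AP-1 factors, and to GGAATG, those of TEAD factors, which do not overlap each other in these windows; the search covered the whole RefSeq promoter, which ends 50 bases after the start.
LAMB3: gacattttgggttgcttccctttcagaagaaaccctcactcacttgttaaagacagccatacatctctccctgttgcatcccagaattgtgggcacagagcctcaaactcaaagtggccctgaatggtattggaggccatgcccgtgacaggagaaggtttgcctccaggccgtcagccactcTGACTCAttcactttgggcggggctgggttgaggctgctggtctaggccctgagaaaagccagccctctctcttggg
ITGA5: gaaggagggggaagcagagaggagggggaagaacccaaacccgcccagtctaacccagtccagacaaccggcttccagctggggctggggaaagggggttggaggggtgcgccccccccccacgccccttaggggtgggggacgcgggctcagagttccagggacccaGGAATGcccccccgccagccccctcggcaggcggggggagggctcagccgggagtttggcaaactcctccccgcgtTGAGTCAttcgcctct
ITGAE: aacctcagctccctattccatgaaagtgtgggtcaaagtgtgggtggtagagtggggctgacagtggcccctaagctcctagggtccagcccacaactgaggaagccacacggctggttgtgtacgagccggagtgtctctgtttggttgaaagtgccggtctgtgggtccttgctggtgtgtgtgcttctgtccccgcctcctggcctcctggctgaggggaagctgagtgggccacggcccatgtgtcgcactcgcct

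TGANTCA was present in 7.71% of 35116 RefSeq promoters and in 2 of the 24 genes: as TGACTCA 67 bases before the LAMB3 start and as TGAGTCA 6 bases before the ITGA5 start. Here and below the share is over single promoters, whereas a gene was counted when any of its promoters matched, so the 2 are unlike measures. LAMB3 has 3 annotated starts, and the other 2 windows hold no match. No TGANTCA was found for any other gene that moved the same way in both lines and had a promoter to search. Genes without a RefSeq promoter could not show a match. The windows shown therefore do not stand for those genes. GGAATG was present in 14% of promoters and in 4 of the 24 genes, ITGA5, ITGA10, ITGB1 and LAMA2, of which ITGA5 and ITGA10 rose in both lines, ITGB1 fell in MCF10A and LAMA2 rose in MDA-MB-231. The E-box CACGTG was present in 7.26% of promoters and in ITGA6 only. The ITGAE window holds none of these letters. A match is a description of the sequence and says nothing of binding.

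Among the laminin beta chains, LAMB3, the beta chain of the hemidesmosomal laminin, rose in both lines. Its log2 values in MCF10A were 13.01, 13.01, 12.99 and 13.02 on vehicle and 14.12, 14.10, 14.12 and 14.11 with 2DG. The MDA-MB-231 values were 11.91, 12.33, 11.87 and 11.95 on vehicle and 12.95, 13.03, 13.03 and 13.02 with 2DG. The groups did not overlap in either line, and the high vehicle value in MDA-MB-231 was that of replicate B. LAMB3 rose by 1.105 ± 0.0728 in MCF10A (2.15-fold, adjusted p = 9.02e-10) and by 0.99 ± 0.0728 in MDA-MB-231 (1.99-fold, adjusted p = 4.58e-09), and by 1.10 in MDA-MB-231 without replicate B on vehicle. The difference of the responses was -0.11 (95% interval -0.33 to 0.11, adjusted p = 0.43); with the actin ratio as a covariate it was -0.26 and called (adjusted p = 0.00392).

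LAMB2, the beta chain of synaptic and glomerular basement membranes, had the largest rise of the 35 genes in MCF10A. Its values there were 8.73, 8.63, 8.55 and 8.63 on vehicle and 10.33, 10.27, 10.27 and 10.26 with 2DG. MDA-MB-231 arrays gave 9.23, 9.79, 9.24 and 9.34 on vehicle and 9.64, 9.70, 9.74 and 9.67 with 2DG. In MCF10A the groups were far apart, whereas in MDA-MB-231 replicate B on vehicle exceeded every 2DG array. LAMB2 rose by 1.65 ± 0.0917 in MCF10A (3.13-fold, adjusted p = 1.01e-10) and by 0.29 ± 0.0917 in MDA-MB-231 (adjusted p = 0.0148). The smaller rise moved with the setting. It was 0.42 without replicate B (adjusted p = 1.14e-06) and not called without vehicle replicate A or C, where the lowest value was 0.23. With the actin ratio as a covariate, a fit that rests largely on replicate B, it was -0.001 (adjusted p = 0.995). The responses differed by -1.36 ± 0.13 (adjusted p = 1.91e-07).

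LAMB1, the beta chain of most tissues, fell. Its MCF10A values were 11.30, 11.19, 11.19 and 11.28 on vehicle and 10.39, 10.38, 10.35 and 10.40 with 2DG. Those of MDA-MB-231 were 8.95, 9.18, 9.05 and 9.11 on vehicle and 8.91, 8.77, 8.80 and 8.87 with 2DG. The groups did not overlap in either line, although those of MDA-MB-231 nearly touched. LAMB1 fell by 0.86 ± 0.0489 in MCF10A (adjusted p = 1.32e-10) and by 0.235 ± 0.0489 in MDA-MB-231 (adjusted p = 0.000605), a difference of 0.625 ± 0.0691 (adjusted p = 1.06e-06). Its other probe set fell by 0.91 and 0.26. LAMB4, the remaining beta chain, lay between 4.13 and 4.64 on all 16 arrays and was called in neither line.

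Of the alpha chains, LAMA1, the alpha chain of the laminin of early embryonic basement membranes, rose in MCF10A. Its values there were 7.07, 6.69, 6.59 and 6.66 on vehicle and 8.19, 8.52, 8.31 and 8.11 with 2DG. For MDA-MB-231 they were 5.21, 4.94, 5.03 and 5.76 on vehicle and 5.27, 5.54, 5.51 and 5.15 with 2DG. The MCF10A groups were apart by more than 1 unit, and the MDA-MB-231 groups overlapped. LAMA1 rose by 1.53 ± 0.159 in MCF10A (2.89-fold, adjusted p = 2.91e-07), while the MDA-MB-231 change was 0.13 ± 0.159 (adjusted p = 0.539) and the responses differed by -1.397 ± 0.225 (adjusted p = 6.36e-05). A dimmer LAMA1 probe set changed by 0.08 ± 0.0836 in MCF10A (adjusted p = 0.469).

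LAMA5, the alpha chain of many adult epithelial basement membranes, rose in MCF10A from 9.94, 10.00, 9.98 and 9.97 to 10.43, 10.50, 10.46 and 10.48. In MDA-MB-231 it went from 9.75, 9.92, 9.67 and 9.73 to 9.64, 9.63, 9.47 and 9.72, and there the groups overlapped. The changes were 0.495 ± 0.0551 (adjusted p = 6.68e-07) and -0.15 ± 0.0551 (adjusted p = 0.0295), and the responses differed by -0.65 ± 0.0779 (adjusted p = 2.78e-06). The fall in MDA-MB-231 was -0.10 and not called without replicate B on vehicle (adjusted p = 0.105), nor was it called without replicate C on 2DG. LAMA2, the alpha chain of muscle and nerve, rose by 0.26 ± 0.0824 in MDA-MB-231 (adjusted p = 0.0152), a call lost without vehicle replicate A or 2DG replicate D. LAMA2 changed by -0.15 in MCF10A (adjusted p = 0.151), and its responses differed by 0.405 ± 0.117 (adjusted p = 0.00873). Of its other probe sets, 2 fell in MCF10A, by 0.36 ± 0.0743 (adjusted p = 0.000507) and by 0.325 ± 0.0763 (adjusted p = 0.00164), and the first also rose by 0.195 in MDA-MB-231. LAMA4, an alpha chain of vascular basement membranes, changed by -0.04 and 0.11 and was called in neither line.

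Of the gamma chains, LAMC1, which most laminins contain, gave opposite answers by probe set. On its brighter probe set the MCF10A values were 12.24, 12.17, 12.11 and 12.25 on vehicle and 11.84, 11.85, 11.80 and 11.84 with 2DG, a fall by 0.36 ± 0.0386 (adjusted p = 4.28e-07). In MDA-MB-231 they were 11.64, 11.72, 11.65 and 11.75 on vehicle and 12.16, 12.18, 12.21 and 12.15 with 2DG, a rise by 0.485 ± 0.0386 (adjusted p = 1.27e-08). The groups did not overlap in either line. On its other probe set LAMC1 rose in both lines, by 1.24 ± 0.0425 in MCF10A and by 0.925 ± 0.0425 in MDA-MB-231. The difference of the responses was 0.845 ± 0.0546 on the first and -0.32 ± 0.0601 on the second (adjusted p = 1.88e-09 and 0.000346). The rise in MDA-MB-231 was thus common to both probe sets, and the direction in MCF10A was not. LAMC3 changed by -0.04 and 0.02 and was called in neither line.

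**Figure D2:**
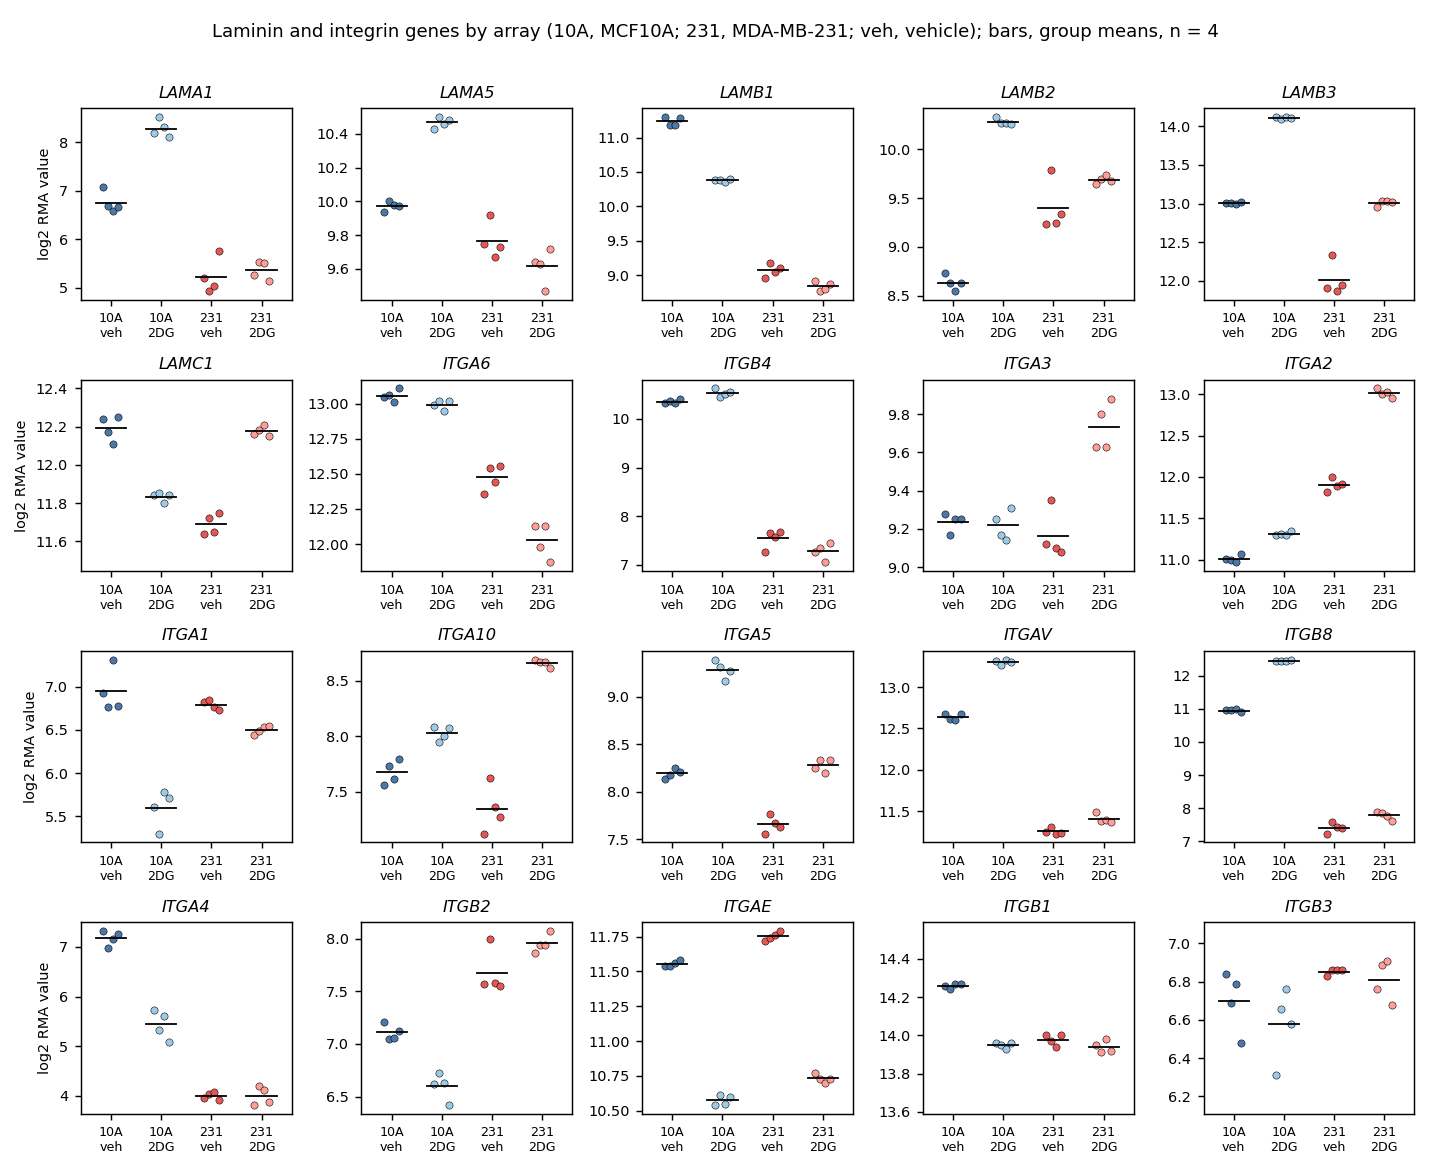
Log2 RMA value of each array (points, 4 per group) and group mean (bars) for 20 of the 35 genes, with MCF10A in blue and MDA-MB-231 in red, vehicle dark and 2DG light; each panel has its own vertical axis, which does not start at 0. LAMB3, ITGA5 and ITGAE shift in both lines, LAMA1 and ITGA4 in MCF10A, and vehicle replicate B of MDA-MB-231 lies above its group in LAMB2, LAMB3, ITGA3, ITGA10 and ITGB2.

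Of the 4 laminin-binding integrin subunits, none was called in MCF10A (limma, adjusted p at least 0.0935; 0 of 4 had an unadjusted p under 0.05), and 3 were called in MDA-MB-231, where 50.9% of all genes were. ITGA3, which pairs with ITGB1, had MDA-MB-231 values of 9.12, 9.35, 9.10 and 9.08 on vehicle and 9.63, 9.80, 9.63 and 9.88 with 2DG. In MCF10A they were 9.28, 9.17, 9.25 and 9.25 on vehicle and 9.25, 9.17, 9.14 and 9.31 with 2DG. Only the MDA-MB-231 groups were apart. ITGA3 rose by 0.57 ± 0.0678 in MDA-MB-231 (1.49-fold, adjusted p = 1.64e-06), the MCF10A change was -0.02, and the responses differed by 0.59 ± 0.0959 (adjusted p = 6.78e-05). Without replicate B on vehicle the rise was 0.635.

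ITGA6, which pairs with ITGB1 or ITGB4, went the other way. Its MDA-MB-231 values were 12.36, 12.54, 12.44 and 12.56 on vehicle and 12.13, 11.98, 12.13 and 11.87 with 2DG. In MCF10A they were 13.05, 13.06, 13.01 and 13.11 on vehicle and 12.99, 13.02, 12.95 and 13.02 with 2DG. The MDA-MB-231 groups were apart and the MCF10A groups overlapped. ITGA6 fell by 0.45 ± 0.0581 in MDA-MB-231 (adjusted p = 4.73e-06) and changed by -0.06 in MCF10A (adjusted p = 0.401), and the responses differed by -0.385 ± 0.0822 (adjusted p = 0.000912). Its other probe set changed by -0.44 and -0.10.

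ITGB4, the beta subunit of hemidesmosomes, had MCF10A values of 10.33, 10.38, 10.32 and 10.41 on vehicle and 10.63, 10.46, 10.52 and 10.56 with 2DG. The MDA-MB-231 values were 7.27, 7.66, 7.57 and 7.67 on vehicle and 7.26, 7.35, 7.05 and 7.45 with 2DG. The MCF10A groups did not overlap but differed by 0.18 ± 0.0876, which was not called (adjusted p = 0.0935). ITGB4 fell by 0.265 ± 0.0876 in MDA-MB-231 (adjusted p = 0.0183), a call lost without vehicle replicate B or D or 2DG replicate C, and the changes over the leave-outs lay between -0.36 and -0.19. Its 4 other probe sets changed by 0.055 to 0.14 in MDA-MB-231, and none was called. ITGA7, the laminin receptor of muscle, was called in neither line, with changes of -0.04 and 0.04.

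Of the 4 collagen-binding alpha subunits, 3 changed in MCF10A and all 4 in MDA-MB-231, where 54.2% and 50.9% of all genes did; the MDA-MB-231 calls of ITGA1 and ITGA11 were lost when single arrays were left out. ITGA2, the collagen receptor of platelets and epithelia, rose in both lines. In MCF10A the values were 11.01, 11, 10.97 and 11.07 on vehicle and 11.30, 11.31, 11.30 and 11.35 with 2DG. MDA-MB-231 arrays gave 11.82, 12, 11.89 and 11.92 on vehicle and 13.07, 13.00, 13.03 and 12.95 with 2DG. The groups were apart in each line, most widely in MDA-MB-231. ITGA2 rose by 0.30 ± 0.0412 in MCF10A (adjusted p = 7.12e-06) and by 1.105 ± 0.0412 in MDA-MB-231 (2.15-fold, adjusted p = 1.1e-12), a difference of 0.80 ± 0.0582 (adjusted p = 7.52e-09). Its other probe set rose by 0.24 and 1.36.

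ITGA10, known as the collagen receptor of cartilage, had the largest change of the 35 genes in MDA-MB-231. Its values there were 7.12, 7.62, 7.36 and 7.27 on vehicle and 8.69, 8.67, 8.67 and 8.62 with 2DG. In MCF10A they were 7.56, 7.73, 7.61 and 7.79 on vehicle and 8.08, 7.95, 8.0 and 8.07 with 2DG. In each line every 2DG array exceeded every vehicle array. ITGA10 rose by 1.32 ± 0.0811 in MDA-MB-231 (2.50-fold, adjusted p = 5.02e-10) and by 0.35 ± 0.0811 in MCF10A (adjusted p = 0.00133), and the responses differed by 0.97 ± 0.115 (adjusted p = 2.37e-06). Without replicate B on vehicle the MDA-MB-231 rise was 1.41.

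ITGA1, which favours basement membrane collagen, fell in MCF10A. Its values there were 6.93, 6.76, 7.31 and 6.78 on vehicle and 5.61, 5.30, 5.78 and 5.71 with 2DG. Those of MDA-MB-231 were 6.82, 6.84, 6.76 and 6.73 on vehicle and 6.44, 6.49, 6.53 and 6.55 with 2DG. The groups were apart by nearly 1 unit in MCF10A and narrowly in MDA-MB-231. ITGA1 fell by 1.345 ± 0.11 in MCF10A (2.54-fold, adjusted p = 1.37e-08) and by 0.285 ± 0.11 in MDA-MB-231 (adjusted p = 0.0401), and the latter call was lost when any 1 of the 8 MDA-MB-231 arrays was left out. The responses differed by 1.06 ± 0.155 (adjusted p = 2.37e-05). A dimmer ITGA1 probe set rose by 0.755 ± 0.142 in MDA-MB-231 (adjusted p = 0.000238) and changed by -0.25 in MCF10A, where it was not called. ITGA11, the fibrillar collagen receptor of fibroblasts, rose by 0.15 ± 0.0513 in MDA-MB-231 (adjusted p = 0.0202), a call lost without vehicle replicate A or 2DG replicate C, and its MCF10A change was 0.

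Of the 7 RGD-binding subunits, 5 rose and none fell in MCF10A, where 29.0% of all genes rose, and 3 rose and 1 fell in MDA-MB-231, where 25.5% and 25.4% did. ITGB8, whose pair with ITGAV binds latent TGF-beta, rose in both lines. Its values in MCF10A were 10.95, 10.95, 10.98 and 10.90 on vehicle and 12.44, 12.44, 12.43 and 12.48 with 2DG. For MDA-MB-231 they were 7.23, 7.58, 7.43 and 7.40 on vehicle and 7.88, 7.84, 7.77 and 7.62 with 2DG. The MCF10A groups were tight and far apart, and the MDA-MB-231 groups nearly touched. ITGB8 rose by 1.503 ± 0.0644 in MCF10A (2.83-fold, adjusted p = 3.6e-12) and by 0.37 ± 0.0644 in MDA-MB-231 (adjusted p = 0.00012), a difference of -1.135 ± 0.0911 (adjusted p = 2.54e-08). Its 4 other probe sets rose by 0.84 to 2.30 in MCF10A. In MDA-MB-231 3 of these rose, by 0.29, 0.58 and 1.11, and the last changed by 0.04 and was not called, while the difference of responses was negative and called on all 4.

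ITGA5, the alpha subunit of the main fibronectin receptor, rose in both lines. Its MCF10A values were 8.14, 8.18, 8.25 and 8.21 on vehicle and 9.39, 9.31, 9.17 and 9.27 with 2DG. In MDA-MB-231 they were 7.56, 7.77, 7.67 and 7.63 on vehicle and 8.25, 8.34, 8.20 and 8.34 with 2DG. The groups were well apart in both. ITGA5 rose by 1.09 ± 0.0542 in MCF10A (2.13-fold, adjusted p = 2.41e-11) and by 0.625 ± 0.0542 in MDA-MB-231 (1.54-fold, adjusted p = 3.71e-08), a difference of -0.465 ± 0.0767 (adjusted p = 8.2e-05).

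ITGAV, the alpha subunit that pairs with ITGB5, ITGB8 and other beta subunits, had MCF10A values of 12.68, 12.62, 12.60 and 12.67 on vehicle and 13.31, 13.27, 13.33 and 13.30 with 2DG. The MDA-MB-231 values were 11.25, 11.31, 11.23 and 11.24 on vehicle and 11.49, 11.38, 11.40 and 11.37 with 2DG. The groups were apart in both lines, by little in MDA-MB-231. ITGAV rose by 0.66 ± 0.036 in MCF10A (adjusted p = 7.89e-11) and by 0.15 ± 0.036 in MDA-MB-231 (adjusted p = 0.00179), a difference of -0.51 ± 0.0509 (adjusted p = 3.51e-07). When the actin ratio entered the fit, the MDA-MB-231 rise was 0.10 and not called (adjusted p = 0.109).

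ITGB5, a vitronectin receptor subunit, had MCF10A values of 10.81, 10.80, 10.86 and 10.84 on vehicle and 11.09, 11.07, 11.14 and 11.18 with 2DG. MDA-MB-231 arrays gave 10.75, 10.70, 10.73 and 10.70 on vehicle and 10.56, 10.51, 10.57 and 10.59 with 2DG. It rose by 0.29 ± 0.034 in the first line and fell by 0.16 ± 0.034 in the second (adjusted p = 1.14e-06 and 0.000642), the groups of each line did not overlap, and the responses differed by -0.455 ± 0.0481 (adjusted p = 6.42e-07). A dimmer ITGB5 probe set fell in both lines, with changes of -1.345 ± 0.076 and -1.44 ± 0.076 and a difference of -0.095 that was not called, while another moved like the brightest, by 0.28 and -0.195. ITGB3, the beta subunit of platelets, endothelium and osteoclasts, had MCF10A values of 6.84, 6.69, 6.79 and 6.48 on vehicle and 6.31, 6.66, 6.76 and 6.58 with 2DG. Those of MDA-MB-231 were 6.83, 6.86, 6.86 and 6.86 on vehicle and 6.76, 6.89, 6.91 and 6.68 with 2DG. The ITGB3 groups overlapped in both lines, and its changes of -0.12 and -0.04 were not called. ITGA2B, the platelet partner of ITGB3, rose by 0.125 in MCF10A (adjusted p = 0.0232), a call lost without vehicle replicate A or 2DG replicate B. Of its other probe sets 1 rose by 0.20 and the dimmest fell by 0.165 ± 0.0598 (adjusted p = 0.0295) in MCF10A. ITGA8, an RGD receptor subunit of smooth muscle and kidney, was called in neither line.

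ITGA4, a receptor for VCAM1 and fibronectin best known from leukocytes, had the largest change of the 35 genes in MCF10A. Its values there were 7.32, 6.98, 7.16 and 7.26 on vehicle and 5.73, 5.33, 5.60 and 5.09 with 2DG. For MDA-MB-231 they were 3.96, 4.04, 4.08 and 3.91 on vehicle and 3.81, 4.19, 4.12 and 3.87 with 2DG. The MCF10A groups were more than 1 unit apart, and the MDA-MB-231 groups overlapped near the bottom of the scale, whose lowest value was 2.38. ITGA4 fell by 1.74 ± 0.122 in MCF10A (3.35-fold, adjusted p = 1.98e-09), the MDA-MB-231 change was 0 ± 0.122, and the responses differed by 1.74 ± 0.173 (adjusted p = 2.99e-07). RMA values give no call of signal over background, so no fall could be read from so low a level. The 3 other ITGA4 probe sets changed by -1.19 to -1.06 in MCF10A. ITGA9, a related receptor for VCAM1 and tenascin-C, was called in neither line, with changes of 0.05 and 0.22.

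Of the 7 subunits known mainly from leukocytes, 1 rose and 3 fell in MCF10A, and 1 rose and 1 fell in MDA-MB-231. These were 57.1% and 28.6% of the group, beside 54.2% and 50.9% of all genes. ITGAE, which as the partner of ITGB7 binds E-cadherin on epithelial cells, fell in both lines. In MCF10A the values were 11.54, 11.54, 11.56 and 11.58 on vehicle and 10.54, 10.61, 10.55 and 10.60 with 2DG. In MDA-MB-231 they were 11.72, 11.74, 11.76 and 11.79 on vehicle and 10.77, 10.73, 10.70 and 10.73 with 2DG. The groups were tight and wholly apart in both lines. ITGAE fell by 0.98 ± 0.0315 in MCF10A (1.97-fold, adjusted p = 9.89e-14) and by 1.02 ± 0.0315 in MDA-MB-231 (2.03-fold, adjusted p = 1.35e-13), and the difference of the responses was -0.04 (95% interval -0.135 to 0.055, adjusted p = 0.526).

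ITGB2, the beta subunit of ITGAL, ITGAM, ITGAX and ITGAD, moved in opposite directions. Its values in MCF10A were 7.21, 7.05, 7.06 and 7.12 on vehicle and 6.62, 6.72, 6.63 and 6.42 with 2DG. The MDA-MB-231 values were 7.57, 8.0, 7.58 and 7.55 on vehicle and 7.86, 7.94, 7.94 and 8.07 with 2DG. The MCF10A groups were apart, and in MDA-MB-231 replicate B on vehicle lay among the 2DG arrays. ITGB2 fell by 0.51 ± 0.0904 in MCF10A (adjusted p = 0.000115) and rose by 0.28 ± 0.0904 in MDA-MB-231 (adjusted p = 0.0169), and the responses differed by 0.79 ± 0.128 (adjusted p = 6.79e-05). The MDA-MB-231 rise was 0.39 without replicate B (adjusted p = 0.000132), was not called without vehicle replicate A, C or D or 2DG replicate D, and was 0.08 with the actin ratio as a covariate (adjusted p = 0.634). The next ITGB2 probe set changed by -0.225 and 0.22, called in neither line, with a difference of 0.44 ± 0.136 (adjusted p = 0.0143).

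ITGAX, a complement receptor subunit, rose by 0.415 ± 0.0571 in MCF10A (adjusted p = 8.07e-06) and changed by -0.05 in MDA-MB-231, a difference of -0.46 ± 0.0808 (adjusted p = 0.000145). Its other probe set changed by 0.02 and 0.01. ITGAD fell by 0.17 ± 0.0592 in MCF10A (adjusted p = 0.0247), a call lost without vehicle replicate C or D or 2DG replicate A or C. ITGAL, ITGAM and ITGB7 were called in neither line, although a dimmer ITGAM probe set rose by 1.06 ± 0.106 in MCF10A (adjusted p = 1.74e-07). PTPRC, the pan-leukocyte surface marker, lay between 3.67 and 4.29 on all arrays. With 2DG the mean of the 8 leukocyte markers was 6.35 to 6.46 in MCF10A and 6.08 to 6.22 in MDA-MB-231. Of these 8, 2 fell, 1 rose and 5 were not called in MCF10A (37.5% called, beside 54.2% of all genes). Their median change was -0.08 and the highest 0.615. CORO1A fell by 1.745 and LCP1 fell by 0.915 in MCF10A, and both encode actin-binding proteins. The part of CORO1A and LCP1 in the falls of ITGA4 and ITGB2 was not tested.

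ITGB1, the beta subunit shared by the collagen receptors, the fibronectin receptor of ITGA5 and the laminin receptor of ITGA3, fell in MCF10A. Its MCF10A values were 14.26, 14.24, 14.27 and 14.27 on vehicle and 13.96, 13.95, 13.93 and 13.96 with 2DG. MDA-MB-231 arrays gave 14.00, 13.97, 13.94 and 14.00 on vehicle and 13.95, 13.91, 13.98 and 13.92 with 2DG. The MCF10A groups were apart and the MDA-MB-231 groups overlapped. ITGB1 fell by 0.31 ± 0.0297 in MCF10A (1.24-fold, adjusted p = 1.08e-07), changed by -0.04 in MDA-MB-231 (adjusted p = 0.332), and the responses differed by 0.27 ± 0.0421 (adjusted p = 4.18e-05). In MDA-MB-231 it was called with quantile normalization (-0.09, adjusted p = 0.0176). These values lie near the top of the scale, whose highest value was 15.15. Another pair of bright ITGB1 probe sets, with means of 13.21 and 12.69, fell by more in MCF10A, by 0.56 ± 0.042 and by 0.54 ± 0.0736. In MDA-MB-231 they changed by -0.16 ± 0.042 (adjusted p = 0.00375) and -0.16 ± 0.0736 (adjusted p = 0.0872), so that 1 of them was called there.

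**Figure D3:**
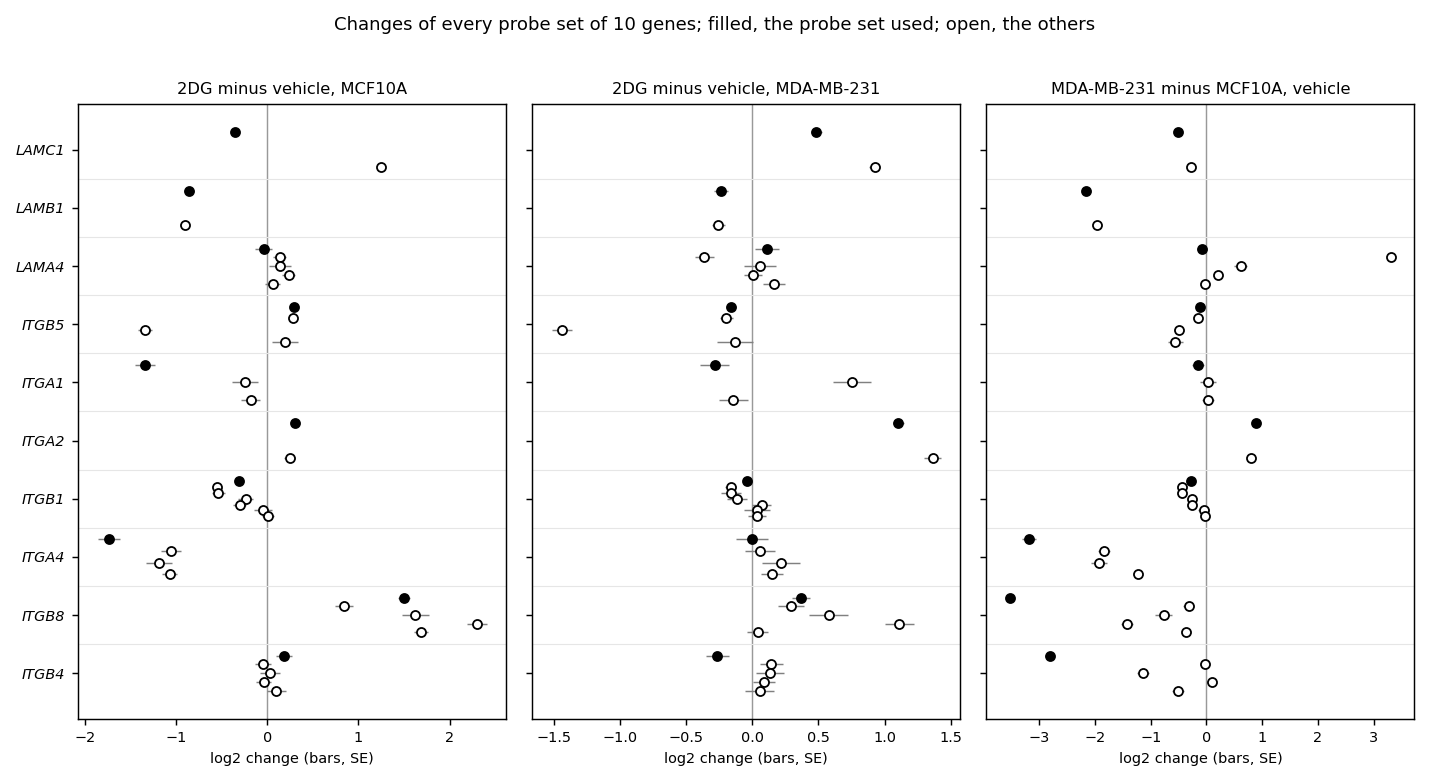
Change on every probe set of 10 of the genes (log2 units, bars the SE), for 2DG in MCF10A (left), 2DG in MDA-MB-231 (middle) and MDA-MB-231 minus MCF10A on vehicle (right); filled points are the probe sets used and open points the others. The probe sets of ITGA4, ITGB8 and LAMB1 point the same way in MCF10A, those of LAMC1 and ITGB5 do not, and 1 open LAMA4 point lies at 3.31 on vehicle.

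Between the lines on vehicle, 20 of the 35 genes differed, 4 higher and 16 lower in MDA-MB-231. Of all genes 56.0% differed, 29.2% higher and 26.8% lower. The vehicle arrays of the lines did not overlap for 19 of the genes, where 52.7% of all genes did not. All 6 genes that differed by at least 1 unit were lower in MDA-MB-231 (13.0% of all genes differed by as much in either direction), and the median difference of the 35 genes was -0.105 against 0 for all genes. This comparison shares its arrays with the responses above, so they are set side by side and not correlated.

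ITGB8 differed most, with the values given above: the MDA-MB-231 minus MCF10A difference was -3.535 ± 0.0644 (11.6-fold, adjusted p = 7.77e-17). Its 4 other probe sets were lower by less, with differences of -1.43 to -0.32. ITGA4 differed by -3.18 ± 0.122 (adjusted p = 7.88e-13), a value with no sure size because its MDA-MB-231 level lay near the bottom of the scale, where signal over background is unknown. ITGB4 differed by -2.82 ± 0.0876 (7.05-fold, adjusted p = 5.47e-14). The ITGB4 difference was seen at this size on the brightest probe set alone: the 4 others gave -1.15, -0.505, -0.03 and 0.095, of which the first pair was called. LAMB1 was lower by 4.49-fold (-2.17 ± 0.0489, adjusted p = 1.01e-15) and by -1.96 on its other probe set. LAMA1 differed by -1.52 ± 0.159 (adjusted p = 3.04e-07), and its dimmer probe set by 0.075, which was not called. ITGAV differed by -1.385 ± 0.036 (2.61-fold, adjusted p = 5.81e-15) and LAMB3 by -0.99 ± 0.0728 (1.99-fold, adjusted p = 3.4e-09). Without MDA-MB-231 vehicle replicate B the LAMB3 difference was -1.097, so LAMB3 then also passed 1 unit.

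The 4 genes that were higher in MDA-MB-231 on vehicle were ITGA2 (0.895 ± 0.0412, adjusted p = 8.14e-12), LAMB2 (0.765 ± 0.0917, adjusted p = 1.55e-06), ITGB2 (0.565 ± 0.0904, adjusted p = 4.02e-05) and ITGAE (0.20 ± 0.0315, adjusted p = 3.88e-05). Without vehicle replicate B of MDA-MB-231, LAMB2 was higher by 0.635 and ITGB2 by 0.457, and both were still called. The other lower genes ranged from ITGA6 at -0.58 ± 0.0581, ITGA5 at -0.54 and LAMC1 at -0.50 to ITGB5 at -0.11. ITGB1 differed by -0.28 ± 0.0297 (adjusted p = 3.24e-07), and by -0.43 and -0.435 on the other bright probe sets. ITGA3, which pairs with ITGB1, differed by -0.075 and was not called. LAMA4 was not called on its brightest probe set (-0.09, adjusted p = 0.452), but on another MDA-MB-231 was higher by 3.31 ± 0.073 (adjusted p = 6.07e-16), at 7.07 against 3.75, and the same probe set fell by 0.36 with 2DG in MDA-MB-231 (adjusted p = 0.000462).

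With 2DG these gaps moved. LAMB3 with 2DG reached 13.01 in MDA-MB-231, the same mean as in MCF10A on vehicle, while MCF10A rose to 14.11. ITGA5 with 2DG reached 8.28 in MDA-MB-231, beside 8.195 in MCF10A on vehicle. LAMB2 was higher in MDA-MB-231 on vehicle (9.40 against 8.635) and lower with 2DG (9.69 against 10.28), LAMC1 was lower on vehicle (11.69 against 12.19) and higher with 2DG (12.175 against 11.83) on its brighter probe set, and the crossing of LAMC1 was not shared by its other probe set, whose responses differed the opposite way. The lines with 2DG were not tested against each other.

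**Figure D4:**
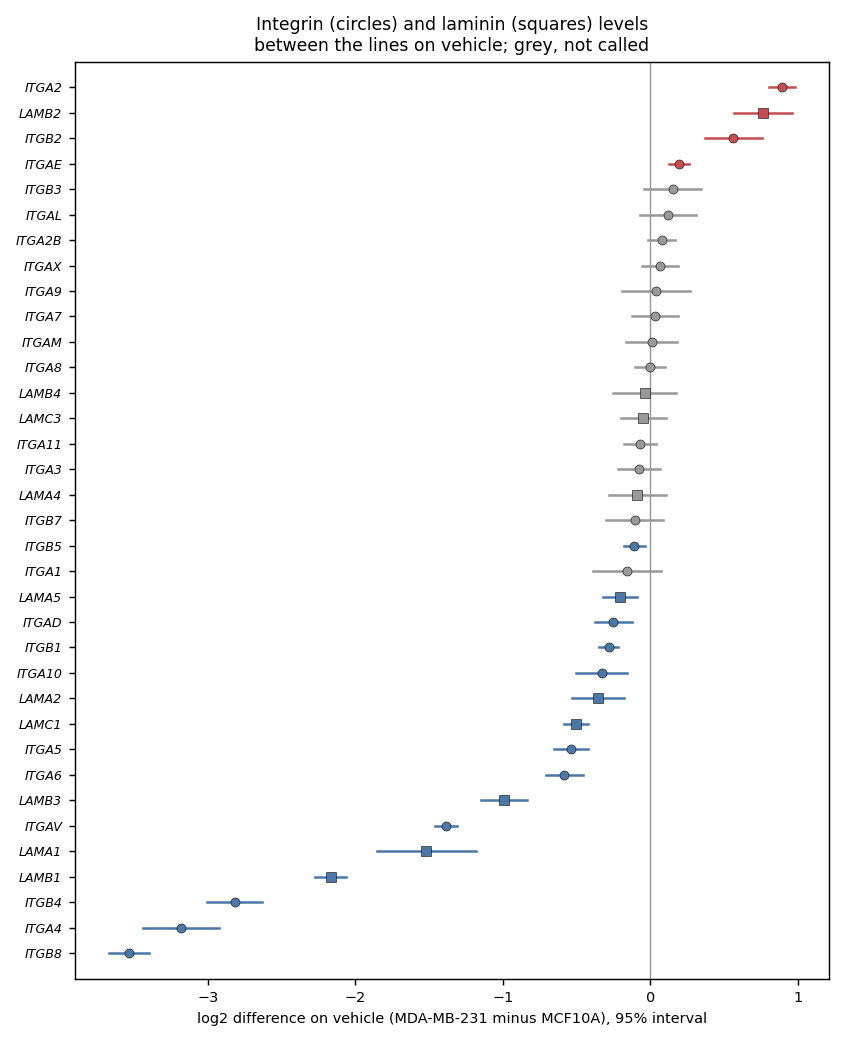
Difference between the lines on vehicle (MDA-MB-231 minus MCF10A, log2 units) with its 95% interval for the 35 genes in order of size; circles are integrin subunits and squares laminin chains, red higher and blue lower in MDA-MB-231, grey not called. The 6 genes beyond 1 unit, ITGB8, ITGA4, ITGB4, LAMB1, LAMA1 and ITGAV, all lie on the lower side.

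Genes that work beside the integrins were followed in lists. Of 34 measured genes of the integrin adhesion complex, the proteins that join integrins to actin, 21 rose and 4 fell in MCF10A, with a median change of 0.24, and 14 rose and 8 fell in MDA-MB-231, with a median of 0.03. These were 73.5% and 64.7% of the list, beside 54.2% and 50.9% of all genes, whose median changes were 0.02 and 0.03. Many of all genes are dim, and dim genes were called less often. With these left out, 9536 of 12659 genes were called in MCF10A, 9123 in MDA-MB-231 and 9670 between the lines on vehicle. The lists here and below were not counted again without dim genes, so a share above that of all genes is not read as an excess. In MCF10A the largest changes were those of TGFB1I1, a paxillin relative (1.86 ± 0.0545, adjusted p = 2.97e-14), KANK2, a talin-binding protein (1.77 ± 0.0403, adjusted p = 1.54e-15), and FERMT1, an integrin activator of epithelia, which fell by 0.98 ± 0.0422. In MDA-MB-231 they were those of NEDD9, a docking protein of focal adhesions (1.005 ± 0.0905, adjusted p = 5.92e-08), TNS3, a tensin (-0.955 ± 0.0356), and LPP, a zyxin relative (-0.945 ± 0.0476). TNS3 and LPP rose in MCF10A, by 0.52 and 0.55, and KANK2 fell by 0.43 in MDA-MB-231. On vehicle 21 of the 34 were higher and 10 lower in MDA-MB-231 (91.2%, beside 56.0% of all genes), among them TNS4 (-3.695), KANK1 (-3.44) and KANK2 (2.46).

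Of 34 basement membrane and matrix genes other than laminins, 9 rose and 10 fell in MCF10A and 11 rose and 8 fell in MDA-MB-231, with median changes of 0.02 and 0.06. The share called was 55.9% in each line, close to that of all genes. In MCF10A, THBS1, which encodes a thrombospondin, fell by 2.61 ± 0.0676 (6.11-fold, adjusted p = 7.08e-15), COL7A1, the anchoring fibril collagen, rose by 2.235 ± 0.0657 (4.71-fold, adjusted p = 3.15e-14), and COL1A1, a chain of fibrillar collagen, rose by 2.11 ± 0.109. In MDA-MB-231, COL15A1, a basement membrane zone collagen, rose by 3.07 ± 0.0896 (8.41-fold, adjusted p = 6.93e-14), COL3A1, another fibrillar collagen, by 1.54 ± 0.112 and TNC, which encodes tenascin-C, by 1.29 ± 0.089. FN1, the fibronectin gene and so the ligand gene of the ITGA5 receptor, fell by 0.36 ± 0.0445 in MCF10A and rose by 0.53 ± 0.0445 in MDA-MB-231 (difference 0.895 ± 0.0629, adjusted p = 5.14e-09); it was named after its values were seen. On vehicle 9 of the 34 were higher and 13 lower in MDA-MB-231 (64.7%, beside 56.0% of all genes), led by COL4A6 (-6.85), TGFBI (-5.145) and COL4A5 (-4.97), of which COL4A5 and COL4A6 are chains of basement membrane collagen.

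Of 14 genes of hemidesmosomes, integrin-associated tetraspanins and laminin receptors other than integrins, 7 rose and 4 fell in MCF10A and 6 rose and 6 fell in MDA-MB-231, with median changes of 0.19 and 0.04; 78.6% and 85.7% were called, beside 54.2% and 50.9% of all genes. With dim genes left out, 9536 and 9123 of 12659 genes were called. In MCF10A, MCAM, an adhesion molecule that binds LAMA4 laminins, fell by 1.5 ± 0.0418, DST, whose epithelial isoform is a hemidesmosome plaque protein, rose by 1.48 ± 0.0468, and GPC1, a glypican, rose by 1.27 ± 0.0364. In MDA-MB-231, SDC1, a syndecan, fell by 2.14 ± 0.0914, CD82, a tetraspanin, fell by 1.22 ± 0.0649, and MCAM fell by 0.90 ± 0.0418. The adjusted p of these 6 changes was at most 8.06e-11. On vehicle 5 of the 14 were higher and 9 lower in MDA-MB-231, where 56.0% of all genes differed, among them SDC2 (3.915), SDC1 (-2.03) and MCAM (1.4).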

How the data were processed

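The authors deposited log2 values made by RMA from 16 Affymetrix U133 Plus 2.0 arrays, per the submitters' processing notes; the RMA version, and whether all arrays were normalized together, are not given in the sources used here. RNA was amplified and biotin-labelled from its 3' end, per the labels' protocols. RMA compresses differences of dim probe sets. Of 54675 probe sets, 41097 name 1 gene, 1801 name several and 11777 are not in the annotation used; the symbols of 41043 matched RefSeq. The 19775 genes were fitted without a filter with limma 3.58.1 in R 4.3.3, with 4 group means and 12 residual degrees of freedom, two-sided; other probe sets were fitted apart over all probe sets with 1 gene. The fit was tested on simulated data. The number of arrays limits the precision.

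The integrin and laminin genes and all lists were chosen with earlier results of these data known. Values by array are given for the 6 genes with the largest called change in each line, the 6 with the largest called difference of response, the 8 with the largest called difference on vehicle, and the main adhesion receptor and hemidesmosomal laminin genes with a value; of each adhesion list the 3 largest called changes are named. LAMC1, LAMA5, ITGB2 and ITGB5 were added after their values were seen. Probe sets that name several genes, among them those of ITGB6, were left out. Alternatives were a replicate block, a trended robust prior, a filter on dim genes, other probe set choices, centring, quantile normalization, fits to the compared groups alone, the actin ratio as a covariate and leaving out each array.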

Additional observations from a re-analysis of the deposited data

Results flagged for a closer look

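In 6 of 140 groups of 4 arrays, 1 array lay apart from the other three by more than 0.829 of the group's range (Dixon's test), which chance does in about 1 of 20 groups. Replicate B of MDA-MB-231 on vehicle was high in ITGA3 (9.35) and ITGB2 (8.0), and replicate A of the same group low in ITGB3 (6.83). Replicate A of MCF10A with 2DG was high in LAMA2 (7.06) and LAMB2 (10.33), and replicate A of MDA-MB-231 with 2DG low in LAMB3 (12.95).

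The responses of the lines to 2DG differed by the interaction term of the limma fit in 20 genes, given as MDA-MB-231 minus MCF10A. The difference was positive for ITGA4 (1.743), ITGA1 (1.06), ITGA10 (0.967), LAMC1 (0.845), ITGA2 (0.802), ITGB2 (0.79), LAMB1 (0.625), ITGA3 (0.593), LAMA2 (0.405) and ITGB1 (0.273). It was negative for LAMA1 (-1.397), LAMB2 (-1.36), ITGB8 (-1.135), LAMA5 (-0.648), ITGAV (-0.508), ITGA5 (-0.465), ITGAX (-0.462), ITGB5 (-0.455), ITGB4 (-0.448) and ITGA6 (-0.385). For ITGA1 and LAMB1 a positive value stands for a smaller fall in MDA-MB-231, for ITGA4 it sets a fall in MCF10A beside an MDA-MB-231 level too low to show one, and for ITGA2 and ITGA10 for a larger rise.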

How the results depend on the processing

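The total counts of genes called moved by less than 1.5 times under every alternative run; by direction, the 12 rises in MDA-MB-231 went to 7 with the actin ratio as a covariate, its 7 falls to 4 without vehicle replicate B or 2DG replicate C, and the 10 negative differences to 6 without cross-matching probe set designs. With a replicate block the totals were 20, 19, 20 and 20 for MCF10A, MDA-MB-231, the difference of responses and the vehicle comparison, as without it, and no call of the 35 genes changed; arrays of the same letter correlated in their deviations by -0.099 to 0.088 (24 pairs), none over 0.1, so the letters were not taken to pair arrays. Leaving out 1 array gave 19 to 21, 14 to 19, 20 to 21 and 20 to 20. Other low MDA-MB-231 counts were 14 with the actin ratio as a covariate, where LAMB2 turned to -0.001, and 15 of 32 without the probe sets whose design allows cross-matches. In these settings 8863 of 19775 and 7937 of 17100 genes were called, so the counts of all genes fell as well. Of the 35 genes, those that reversed did so mostly with another choice of probe set. With the mean of all probe sets, ITGB5 was -0.144 and LAMC1 0.441 in MCF10A, ITGA1 0.108 and ITGB4 0.032 in MDA-MB-231, and LAMA4 0.805 on vehicle. Without cross-matching designs, ITGB5 was -1.345 and LAMA4 0.232 in MCF10A, ITGB4 was 0.092 in MDA-MB-231, 0.133 for the difference and 0.095 on vehicle, LAMA4 was 0.202 and ITGA8 -0.275 on vehicle. The cause was not tested. With quantile normalization LAMA5 was no longer called in MDA-MB-231. The files hold no detection calls, so signal over background is unknown, and changes of dim probe sets may be understated.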
